A study of Mus musculus with 24 samples.

Results

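CpG-sparse intronic CpGs are the CpGs of the deposited methylation table that lie inside a gene of the GENCODE M21 annotation (mouse genome GRCm38/mm10) but in no exon, more than 1000 bases away from any transcription start. In addition, they have at most 3 CpG dinucleotides in the stretch that extends 50 bases to either side of the cytosine, the cytosine's own CpG included. This rule uses position and sequence only, and 90718 of the 762182 rows (11.9%) met it. A further 4 rows that met it were left out because the reference genome has no CpG at that position. Methylation had been measured by reduced representation bisulfite sequencing (RRBS) of micro-dissected dentate gyrus from single female C57BL/6JRj mice. Young STD mice (n = 5) were 1.5 months old and came from standard cages (STD), Aged STD mice (n = 7) were 14 months old and came from standard cages, and Aged ENR mice (n = 7) were 14 months old and had lived since youth in environmental enrichment (ENR), an enclosure with tunnels and toys that are moved around. Mice of a group shared cages or enclosures, so that an effect of housing and an effect of a particular cage cannot be told apart. Young ENR mice were not analysed here.

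In mammals, the cytosine of a CpG is methylated by default, and long-term loss of CpGs by mutation has left most introns with few of them, whereas CpG islands at promoters stay unmethylated. Intronic CpGs far from a promoter are often methylated in only part of the cells of a tissue where an enhancer or another regulatory element is in use in some cell types. In the dentate gyrus most cells are granule neurons, to which new neurons are added in adult life, and the remainder includes glia, interneurons and vessel cells. RRBS cuts DNA with MspI at CCGG and sequences short fragments from their ends, so that the CpG within CCGG is read at a fragment end and other CpGs are read further inside.

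The members lay in the introns of 12028 genes, with a median of 4 and at most 531 per gene. Protein-coding genes held 78913 of them (87.0%), 5137 lay in several overlapping genes, and a first intron held 40939 (45.1%). The cytosine's own CpG was the only CpG of the stretch at 24344 members, while 36337 had 2 CpGs and 30037 had 3. Of the members, 55640 (61.3%) were the CpG of a CCGG site, compared with 33.3% of all CpGs in the table. CpG-sparse positions between genes were similar, with 61722 of 99981 inside CCGG. The cutting site was thus the commonest place of a member. The following stretches are shown because they are typical: each is the member measured in all 19 mice whose level is nearest to the median of members with 1, 2 or 3 CpGs. Capitals mark the measured CpG, or the whole CCGG where the CpG lies in a cutting site, and all stretches are written 5′ to 3′ on the strand of the cytosine.

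Gpc3, chrX:52465948-52466048, plus strand: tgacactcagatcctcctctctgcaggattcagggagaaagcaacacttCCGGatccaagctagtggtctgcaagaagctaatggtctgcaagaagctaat
L3mbtl4, chr17:68624935-68625035, plus strand: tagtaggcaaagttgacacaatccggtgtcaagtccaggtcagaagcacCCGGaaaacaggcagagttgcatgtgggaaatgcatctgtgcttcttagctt
Mucl3, chr17:35639195-35639295, minus strand: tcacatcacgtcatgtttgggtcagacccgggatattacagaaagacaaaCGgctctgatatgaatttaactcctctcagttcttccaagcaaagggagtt

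The Gpc3 cytosine (intron 2 of a gene for a cell-surface proteoglycan) averaged 80.1% ± 18.9 in Young STD mice (SD, n = 5). The average was 56.2% ± 25.1 in Aged STD mice and 74.0% ± 18.7 in Aged ENR mice (n = 7 each). At the L3mbtl4 cytosine (intron 12) the means were 72.9% ± 13.7, 49.96% ± 40.1 and 79.1% ± 25.8. The Mucl3 cytosine (intron 1), which is outside CCGG, had 52.5% ± 5.81, 62.0% ± 33.6 and 61.0% ± 12.5. At each of them the groups overlapped, and the SD within Aged STD mice was larger than the difference between the young and Aged STD means.

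Each mouse had a value at 489796 to 725449 CpGs, of which 47855 to 87450 were members. Members therefore made up 12.1% to 13.05% of the measured CpGs in Young STD mice, 9.05% to 14.7% in Aged STD mice and 10.02% to 14.4% in Aged ENR mice. The 4 mice with the lowest share, 9.05% to 10.02%, were Aged STD 3, 4 and 6 and Aged ENR 4. The main differences are given below with and without them. Where no value without them is given, a result is over all mice. The table holds percentages without read numbers, so the depth behind a value is unknown beyond the minimum coverage given with the processing. At members with a level of 20% to 80% in the other mice, a value of exactly 0% or 100% was found for 14.9% to 40.7% of values in Young STD, 24.4% to 72.8% in Aged STD and 23.9% to 63.7% in Aged ENR mice. Library numbers in the labels begin with 27 (3, 4 and 4 mice in the order Young STD, Aged STD, Aged ENR) or 37 (2, 3 and 3 mice), and are used below as a batch. In bulk tissue, a different mix of cell types and a different methylation within a cell type cannot be told apart, and these data hold no expression values against which the tissue label could be checked.

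Members covered the whole range of methylation. Averaged over the groups, 24.2% of members were under 20%, 36.1% between 20% and 80% and 39.6% over 80%. Over all CpGs of the table, of which 47.1% are at CpG-rich promoters, the shares were 63.2%, 15.9% and 20.9%. Introns with more than 3 CpGs in the stretch had 47.6%, 22.7% and 29.6%, and CpG-sparse positions between genes had 18.4%, 31.5% and 50.1%. Intermediate methylation was thus most frequent at CpG-sparse introns among these classes. The median member was at 70.4% in Young STD, 60.4% in Aged STD and 65.2% in Aged ENR mice. Members under 20% were 20.5%, 28.6% and 26.2% of the total in these groups, and members over 80% were 42.2%, 36.8% and 39.4%.

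**Figure D1:**
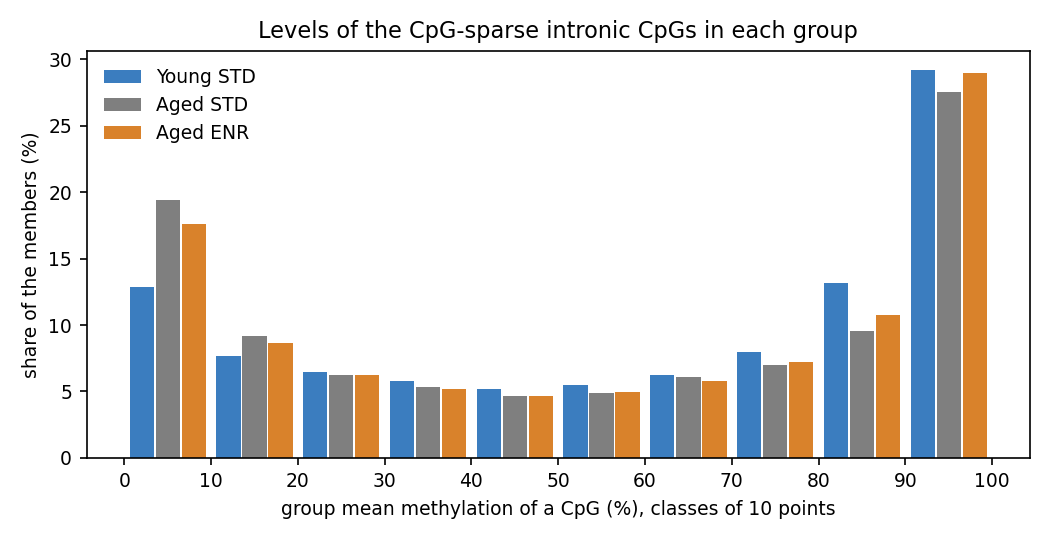
Share of the 90718 CpG-sparse intronic CpGs (y axis, percent) in classes of 10 percentage points of the mean methylation of a group (x axis), with blue bars for Young STD (n = 5), grey bars for Aged STD (n = 7) and orange bars for Aged ENR mice (n = 7). Both ends of the range are filled, and the share under 20% was 20.5% in Young STD, 28.6% in Aged STD and 26.2% in Aged ENR mice.

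To compare groups with each mouse as a unit, the mean over the 7998 members measured in all 19 mice (8.82%) was taken. In Young STD mice 1 to 5 it was 38.2%, 38.4%, 38.0%, 41.8% and 42.1%. In Aged STD mice it ranged from 28.8% over a median of 35.0% to 41.0%, and in Aged ENR mice from 32.1% over 35.7% to 40.6%. In both aged groups, 6 of 7 mice were below every Young STD mouse and the remaining mouse lay among them. The group means ± SD were 39.7% ± 2.08, 33.8% ± 4.42 and 35.9% ± 2.51, which gives a difference of −5.89 points for age (Aged STD minus Young STD), 2.06 for housing (Aged ENR minus Aged STD) and −3.83 for Aged ENR minus Young STD. Without the 4 mice with the lowest share of members, these differences were −2.78, −0.42 and −3.20. The first and the second comparison share the Aged STD mice, and the first and the last share the Young STD mice. No test was made of a mean over the members.

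Members measured in every mouse are less methylated (36.5% on average) than all members (57.02%). To use all of them, each mouse was given the mean deviation of its measured members from the level of the same CpGs in all groups, added to the mean level of all members, which is called the coverage-adjusted mean here. By this measure the groups were at 60.1% ± 1.92, 53.7% ± 4.94 and 56.4% ± 2.85, with differences of −6.41 for age, 2.67 for housing and −3.74 for Aged ENR minus Young STD. The age difference was −5.56 among libraries numbered 27 and −7.76 among those numbered 37, and −2.90 without the 4 mice of low share.

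The difference between ages was unequal between members inside and outside the cutting site. Inside CCGG (55640 members), the coverage-adjusted mean was 60.2%, 60.7%, 60.5%, 63.1% and 63.2% in Young STD mice 1 to 5. It was 57.5%, 55.8%, 45.7%, 49.6%, 61.4%, 43.3% and 53.1% in Aged STD mice 1 to 7, and 57.7%, 55.4%, 57.7%, 51.1%, 53.8%, 62.1% and 54.8% in Aged ENR mice. All but 1 mouse of each aged group were below the lowest young mouse. The means were 61.5% ± 1.48, 52.4% ± 6.51 and 56.1% ± 3.49, so that the difference was −9.18 points for age, 3.72 for housing and −5.46 for Aged ENR minus Young STD. Both library series had this direction, with −8.29 and −10.55 for age, 3.30 and 4.28 for housing and −4.99 and −6.27 for Aged ENR minus Young STD.

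Outside CCGG (35078 members), Young STD mice were at 55.8%, 56.3%, 55.7%, 60.7% and 60.9%. Aged STD mice were at 56.0%, 56.4%, 52.4%, 54.1%, 60.9%, 53.5% and 57.3%, and Aged ENR mice at 56.0%, 55.1%, 56.98%, 54.1%, 57.5%, 61.0% and 57.6%. The groups overlapped for the most part, since only 3 of 7 Aged STD mice were below the lowest young mouse. The means were 57.9% ± 2.66, 55.8% ± 2.85 and 56.9% ± 2.21, and the differences of −2.07 for age, 1.08 for housing and −0.99 for Aged ENR minus Young STD were within the SD of the groups. The age difference was −1.22 in library series 27 and −3.52 in series 37.

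**Figure D2:**
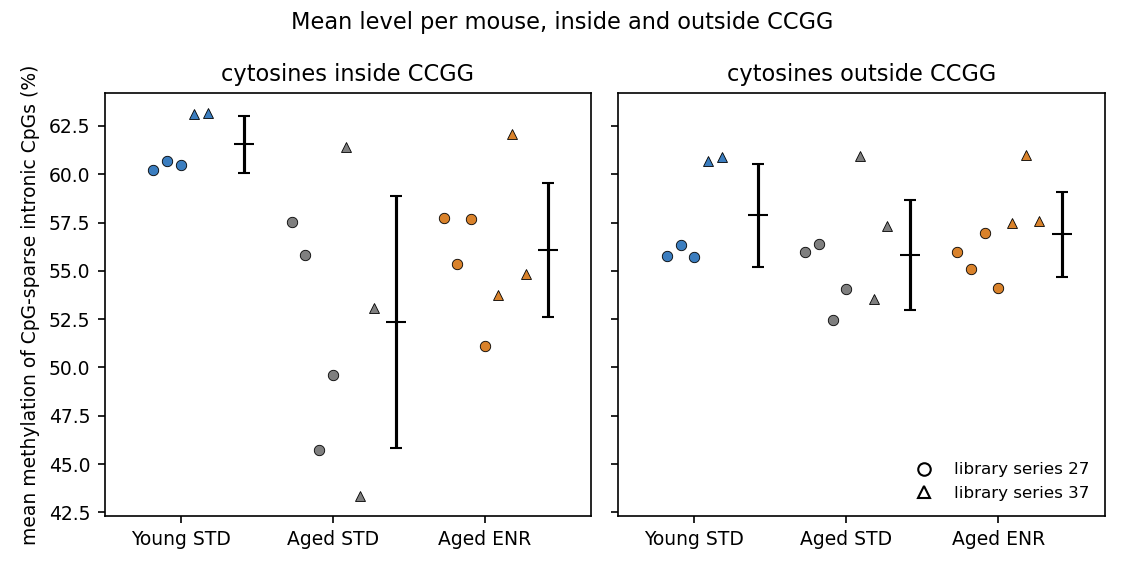
Coverage-adjusted mean methylation of the members in each mouse (y axis, percent, not starting at 0) for CpGs inside CCGG (left) and outside CCGG (right), with circles for library numbers beginning with 27, triangles for 37, and mean ± SD beside each group. Inside CCGG, Young STD mice sit between 60.2% and 63.2% and Aged STD mice spread from 43.3% to 61.4%. The ranges of the groups overlap in both panels, although inside CCGG 6 of 7 mice of each aged group lie below all young mice.

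Taken within each mouse, the mean inside CCGG minus the mean outside was 3.67 ± 1.19 points in Young STD, −3.44 ± 4.21 in Aged STD and −0.80 ± 2.26 in Aged ENR mice. Young STD mice did not overlap with either aged group in this contrast, and 7 of 7 mice of each aged group were below all of them. The difference was −7.11 for age (−7.07 and −7.03 in the separate library series) and −4.47 for Aged ENR minus Young STD. The 4 mice of low member share had the lowest values inside CCGG in their groups. Without them, the age difference was −4.58 inside CCGG, −0.22 outside and −4.36 for the contrast, and the housing difference was −0.06 inside and −0.31 outside. The housing difference inside CCGG was thus not seen among the remaining mice. Since the mice left out were the lowest of their groups and mostly Aged STD, a smaller housing difference follows in part from the choice. The split by cutting site was made after the values had been seen, and the part of library composition in it was not tested. Whether bases filled in at fragment ends were fully removed from the reads could not be checked from percentages and was not tested either.

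**Figure D3:**
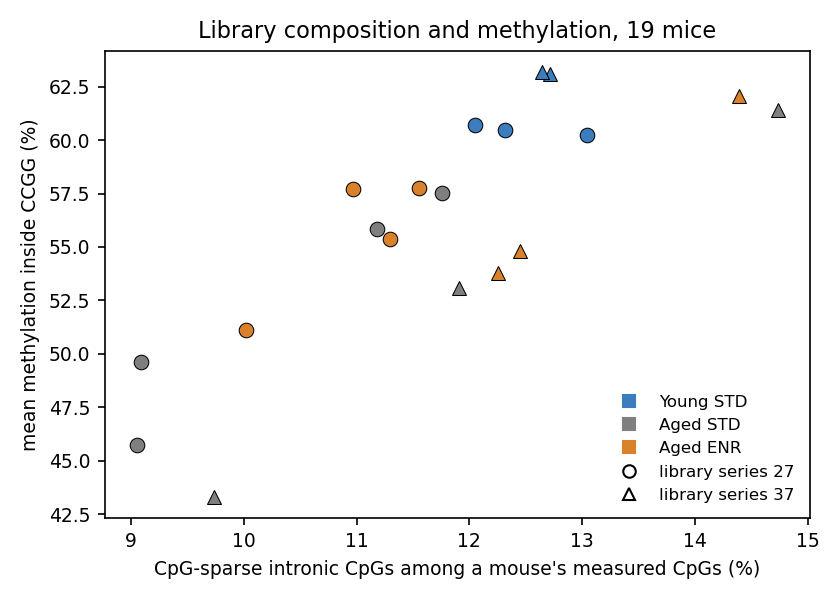
Coverage-adjusted mean of members inside CCGG (y axis, percent, not starting at 0) against the share of CpG-sparse intronic CpGs among all CpGs measured in the same mouse (x axis, percent), with 1 point for each of 19 mice, colours for groups and shapes for library series. The 4 mice with a share of 9.05% to 10.02% are Aged STD 3, 4 and 6 and Aged ENR 4, and sit between 43.3% and 51.1%.

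Inside CCGG, members with fewer CpGs around them had higher levels, and over all mice their age difference was larger. With 1, 2 and 3 CpGs in the stretch, Young STD mice were at 64.7%, 61.6% and 56.7% inside CCGG, and Aged STD mice at 54.98%, 52.3% and 48.4%. The age differences were −9.67, −9.28 and −8.34 points over 20546, 21494 and 13600 members. Outside CCGG, the same classes held 3798, 14843 and 16437 members, and the age differences were −1.09, −2.12 and −2.25. The order by CpG number thus ran the other way outside CCGG. Introns with 4 CpGs, which the rule leaves out, were at −7.24 inside, a smaller difference than in the 3 classes of members, and at −2.10 outside, between the classes with 1 and 3 CpGs. Without the 4 mice of low share, the age differences of the 3 classes were −4.68, −4.63 and −4.36 inside CCGG and 0.77, −0.23 and −0.44 outside. The order inside CCGG then spanned less than 1 point, and the class with 1 CpG outside CCGG changed its direction. Over both kinds of site, members with 3 CpGs were at 56.3%, 51.3% and 53.3% in the order Young STD, Aged STD, Aged ENR, and the 19724 intronic CpGs with 4 at 52.5%, 48.6% and 50.2%. At the other threshold, the 3301 members within the next 250 bases beyond 1000 bases from a start were at 42.3%, 37.6% and 39.8%, and the 4314 CpGs that miss the limit by up to 250 bases at 35.0%, 30.6% and 31.8%.

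**Figure D4:**
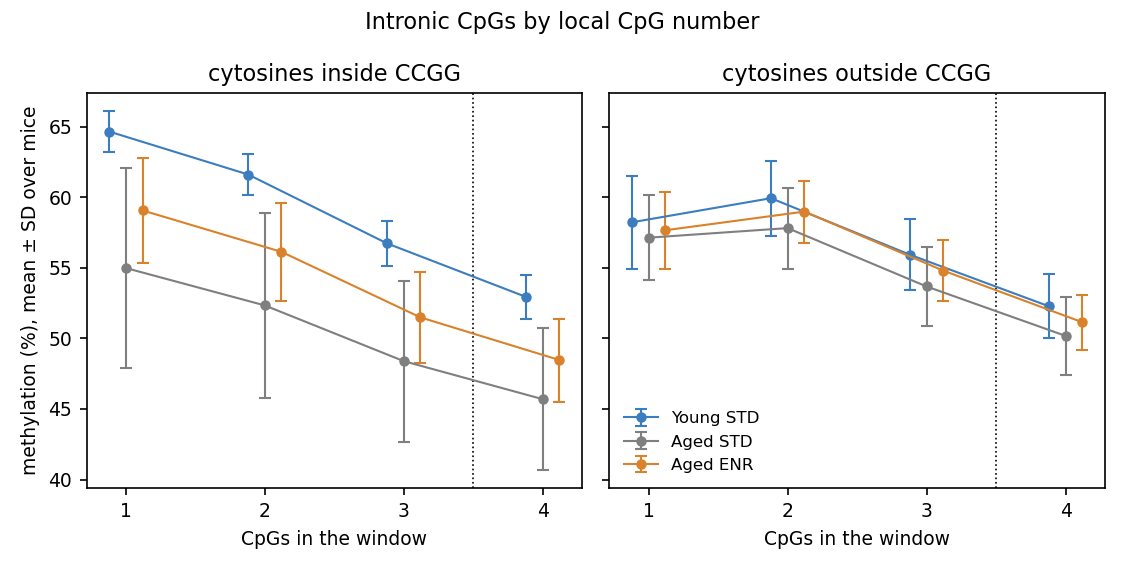
Coverage-adjusted methylation (y axis, percent, mean ± SD over mice, not starting at 0) of intronic CpGs by the number of CpGs in the stretch (x axis), inside CCGG (left) and outside CCGG (right). The dotted line separates members (1 to 3 CpGs) from the CpGs just outside the rule, and inside CCGG the difference of Aged STD minus Young STD runs from −9.67 points with 1 CpG to −7.24 with 4 CpGs (−4.68 to −3.76 without the mice of low share).

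Levels also varied with position and sequence. Members in repeats annotated by soft-masking (13493, or 14.9%) averaged 76.0%, compared with 53.7% elsewhere. First introns averaged 51.1% and later introns 61.9%. From 1 to 2 kb beyond a transcription start the average was 44.6%, and it was 65.2% over 100 kb away. Stretches with at most 40% G and C averaged 65.8%, those with over 60% averaged 38.0%, and the 2143 members on the X chromosome averaged 73.8%. The measured CpG was the centre of an E-box (CACGTG, a motif of basic helix-loop-helix factors that reads the same on both strands) at 483 members, or 0.53% compared with 0.41% of all CpGs, and these averaged 49.6%. It was the centre of the CRE motif TGACGTCA, known from activity-dependent genes and likewise the same on both strands, at 27 members, or 0.0298% compared with 0.0464% of all CpGs, and these averaged 40.4%. A match describes the sequence only.

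The age difference over all mice was below 0 on both kinds of site in the subsets by repeat, intron, strand, chromosome and gene length. Inside CCGG it was −7.33 points in repeats and −9.52 outside them, −9.49 in first and −8.94 in later introns, and −9.24 and −9.12 for cytosines on the strand of the gene and on the opposite strand. Outside CCGG, the same pairs were −0.62 and −2.28, −2.53 and −1.67, and −2.20 and −1.94. Members of the X chromosome had −7.56 inside and −1.56 outside, and autosomes −9.23 and −2.08. Genes over 100 kb in length, which hold 48360 members (53.3%), had −9.52 and −2.45, and genes of up to 20 kb −8.55 and −0.60. Across the range of levels, taken from Aged ENR mice, the age difference was −6.48 for members at 0% to 20%, −12.28 at 20% to 40%, −12.17 at 40% to 60%, −8.67 at 60% to 80% and −2.88 at 80% to 100%. Members of intermediate level thus differed most in size between ages. CpG-dense introns likewise differed most at intermediate levels, with −2.14, −7.38, −8.95, −6.35 and −1.18 in the same classes. These values are over all mice and both kinds of site.

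Compared with other classes, the age difference inside CCGG was −5.81 in CpG-dense introns, −7.09 in CpG-sparse positions between genes, −8.48 in CpG-sparse exons and −5.21 over all CpGs. Outside CCGG it was −1.63, −0.68, −1.34 and −0.36. Without the mice of low share, these classes had −3.001, −2.94, −3.91 and −2.55 inside CCGG, beside −4.58 for members. Outside CCGG they then had −0.29, 0.71, 0.21 and 0.21, beside −0.22 for members, so that all but the dense introns changed direction. Within each mouse, members inside CCGG exceeded CpGs of dense introns by 14.2 ± 0.18 points in Young STD, 10.8 ± 2.59 in Aged STD and 12.3 ± 1.19 in Aged ENR mice, and the young group overlapped with neither aged group. The age difference of this excess was −3.37, and −1.58 without the mice of low share. Outside CCGG the excess was 17.2 ± 0.95, 16.8 ± 0.81 and 17.0 ± 0.64, with overlap. Over both kinds of site, members minus CpG-sparse exons were at −3.25 ± 0.20, −4.27 ± 0.71 and −4.02 ± 0.52 points. The age difference of this contrast was −1.02, and the groups overlapped. Relative to sparse positions between genes, members outside CCGG were at −5.22 ± 0.34, −6.60 ± 0.68 and −6.52 ± 0.54 points, and 6 of 7 Aged STD mice were below all young mice. This difference of −1.39 for age was −1.37 and −1.43 in the library series and −0.93 without the mice of low share. It concerns CpGs away from the cutting site and was of the same direction in each of these sets of mice, although it was small.

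Single members were examined to see which introns differed most between Young STD and Aged STD mice. Of 84787 members tested with limma, 0 were called at an adjusted p under 0.05 with a difference over 25 points (0 percent of all CpGs tested), and the lowest adjusted p was 0.45. At an unadjusted p under 0.05, 4815 members were lower and 1283 higher in Aged STD mice, while 3.33% and 1.09% of all CpGs tested were lower and higher. Without the mice of low share, 2431 of 83672 members were lower and 1368 higher at this p, compared with 1.71% and 1.57% of all CpGs. With other settings of limma, 44 members were called without the variance trend (120 of 527597 over all CpGs, or 0.0227%) and 8 of 87401 with all 3 groups in the fit (34 of 582438, or 0.00584%). Differences over 25 points were found at 11417 members (13.5%) that were lower in Aged STD mice and at 2525 (2.98%) that were higher, compared with 7.19% and 2.17% of all CpGs. Lower members of this size were 16.7% of those inside CCGG (8731 of 52259) and 8.26% of those outside (2686 of 32528), whereas higher ones were 1.97% and 4.60%. Over all CpGs the same split was 11% and 4.35% for lower and 1.63% and 2.57% for higher ones, which is the same direction. In CpG-dense introns it was 12.2% and 6.8% for lower and 1.82% and 2.99% for higher ones. Outside CCGG, 3.14% of members and 3.13% of CpGs in dense introns were lower at an unadjusted p under 0.05 by limma. The median difference of members was −5.86 points inside and −0.60 outside, compared with −2.44 and 0.35 over all CpGs.

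Among the 11221 members measured in all 12 mice of this comparison, the groups did not overlap at 97 that were lower and 12 that were higher in Aged STD mice. Over all CpGs these shares were 0.365% and 0.0671%. Of the 97, 84 were inside CCGG (of 6857 measured there) and 13 outside (of 4364), and the 12 were divided evenly with 6 each. For members these are 1.23% and 0.298% lower and 0.0875% and 0.137% higher, compared with 0.668% and 0.147% lower and 0.0514% and 0.0784% higher over all CpGs. CpG-dense introns had 0.814% and 0.273% lower and 0.0543% and 0.0497% higher, so that outside CCGG the lower share was near that of members. The stretches of the members with the largest non-overlapping differences are shown, since these are the positions a targeted assay could read. That of the lower member in AC149054.1, which is named below, is not shown. The following were lower in Aged STD mice.

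Gm31508, chr12:28963026-28963126, plus strand: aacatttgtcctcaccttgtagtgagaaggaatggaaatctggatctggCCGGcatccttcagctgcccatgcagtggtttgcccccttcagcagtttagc
A730056A06Rik, chr7:73366914-73367014, minus strand: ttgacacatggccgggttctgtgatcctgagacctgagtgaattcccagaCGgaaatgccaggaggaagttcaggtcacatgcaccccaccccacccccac
Igsf3, chr3:101414578-101414678, plus strand: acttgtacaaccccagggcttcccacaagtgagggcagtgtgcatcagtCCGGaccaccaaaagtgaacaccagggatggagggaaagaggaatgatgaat
Lrig2, chr3:104432547-104432647, plus strand: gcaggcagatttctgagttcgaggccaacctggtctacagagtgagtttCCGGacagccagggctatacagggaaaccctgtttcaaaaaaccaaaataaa

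The cytosine in intron 1 of Gm31508, inside CCGG and at position 28963076 of chromosome 12, was at 58.8%, 36.6%, 100%, 100% and 59.3% in Young STD mice. In Aged STD mice it was at 0% in the lowest and the median mouse and at 35.0% in the highest, a difference of −64.4 points (adjusted p = 0.76 by limma, as for all age differences named here). The gene A730056A06Rik had a cytosine in intron 1, outside CCGG and at position 73366964 of chromosome 7, with 60.9%, 65.5%, 82.8%, 64.3% and 86.2% in Young STD mice. Aged STD mice had a lowest and a median value of 0% and a highest of 28.1%, and the difference was −60.2 points. These cytosines were chosen because Young STD and Aged STD mice do not overlap there, whereas Aged ENR mice spanned 0% to 100% at both. Igsf3 (a membrane protein with immunoglobulin domains) and Lrig2 (a membrane protein with leucine-rich repeats) had cytosines in intron 1, both inside CCGG and the latter in a repeat, with −55.7 and −54.8 points, and the gene AC149054.1 had −56.8. Aged ENR mice ranged widely at these positions, for example from 0% to 71.0% with a median of 18.2% at Igsf3.

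The next stretches belong to the members that were higher in Aged STD mice without overlap. Of these 5, only that in Stx12 lies in a cutting site.

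Stx12, chr4:132856202-132856302, minus strand: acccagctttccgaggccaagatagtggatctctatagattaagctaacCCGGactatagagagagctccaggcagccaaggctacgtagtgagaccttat
Itga6, chr2:71788361-71788461, plus strand: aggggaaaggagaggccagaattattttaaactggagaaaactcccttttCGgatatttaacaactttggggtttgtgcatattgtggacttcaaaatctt
Foxp2, chr6:15305398-15305498, minus strand: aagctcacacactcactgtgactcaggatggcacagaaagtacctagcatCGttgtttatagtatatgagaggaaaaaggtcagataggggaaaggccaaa
Tbc1d7, chr13:43161371-43161471, plus strand: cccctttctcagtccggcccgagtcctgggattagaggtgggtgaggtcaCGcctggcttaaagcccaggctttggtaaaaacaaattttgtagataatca
Rasal2, chr1:157338816-157338916, plus strand: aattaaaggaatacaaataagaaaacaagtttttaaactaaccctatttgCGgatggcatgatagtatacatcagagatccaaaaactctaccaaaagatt

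Itga6 encodes an integrin subunit that binds laminin. Its cytosine in intron 1, at position 71788411 of chromosome 2 and 1433 bases from the transcription start, was at 16.7%, 16.0%, 26.2%, 26.97% and 4.55% in Young STD mice. Aged STD mice ranged from 36.2% over a median of 52.9% to 100%, and Aged ENR mice from 41.2% over 56.8% to 100%. The young group overlapped with neither aged group, and the differences were 38.8 points for age and 43.1 for Aged ENR minus Young STD, which share the young mice. Tbc1d7 encodes a subunit of the TSC complex, which restrains growth signalling. At its cytosine in intron 1 (position 43161421 of chromosome 13), Young STD mice had 71.4%, 80.6%, 66.2%, 79.7% and 50%, Aged STD mice 83.1% to 100% with a median of 95.2%, and Aged ENR mice 33.9% to 74.2% with a median of 55.7%. Aged STD mice were above all mice of both other groups here, with differences of 23.2 points for age and −35.7 for housing (adjusted p = 0.77 by limma). The differences for age were 47.0 in Stx12 (a syntaxin of endosomes), 28.7 in Foxp2 (a forkhead transcription factor) and 22.9 in Rasal2 (a Ras GTPase-activating protein).

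Housing was compared to see whether enriched and standard mice of the same age differed at members. Of 83169 members tested with limma, 0 were called (0 percent of all CpGs), the lowest adjusted p was 0.77, and 825 were lower and 1766 higher in Aged ENR mice at an unadjusted p under 0.05, compared with 0.798% and 1.45% of all CpGs. Without the variance trend 9 members were called, compared with 26 of 530258 over all CpGs (0.0049%). Without the mice of low share, 1371 of 81088 members were lower and 1394 higher at an unadjusted p under 0.05, compared with 1.61% and 1.17% of all CpGs, so that the excess of higher members was not seen among the remaining mice. Differences over 25 points were found at 3653 lower members (4.39%) and 6720 higher ones (8.08%), compared with 2.62% and 4.53% of all CpGs. The groups did not overlap at 1 lower and 2 higher members of 9644, compared with 0.00374% and 0.0125% of all CpGs. The lower one was the Tbc1d7 cytosine. One of the higher ones lay in intron 11 of Kntc1, a gene of the kinetochore. The Kntc1 cytosine (chromosome 5, position 123764916, in a repeat) was at 17.9% to 80% with a median of 63.6% in Aged STD and at 88.7% to 100% with a median of 100% in Aged ENR mice, a difference of 43.0 points. It lies inside CCGG.

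Aged ENR and Young STD mice differ in age and in housing. Of 85156 members tested with limma, 0 were called (0 percent of all CpGs), the lowest adjusted p was 0.50, and 3561 were lower and 1627 higher in Aged ENR mice at an unadjusted p under 0.05, compared with 2.56% and 1.4% of all CpGs. The settings that gave calls were the fit without the variance trend (21 members, compared with 92 of 522275 over all CpGs or 0.0176%) and that with all 3 groups (8 members, compared with 39 of 582438 or 0.0067%). Without the 1 Aged ENR mouse of low share, 3011 of 84831 members were lower and 1549 higher at an unadjusted p under 0.05, compared with 2.12% and 1.4% of all CpGs. Differences over 25 points were found at 8090 lower (9.50%) and 2748 higher members (3.23%), compared with 5.21% and 2.39% of all CpGs. The groups did not overlap at 81 lower and 18 higher members of 15766, compared with 0.246% and 0.0777% of all CpGs. Of the 9962 members measured inside CCGG, 60 were lower (0.602%) and 2 higher (0.0201%), compared with 0.393% and 0.0607% of all CpGs there. Of the 5804 outside, 21 were lower (0.362%) and 16 higher (0.276%), compared with 0.122% and 0.092%. In CpG-dense introns, 0.58% inside and 0.15% outside were lower, and 0 inside and 0.15% outside were higher. The largest lower differences were −74.7 points in Basp1 (a growth cone protein), −61.0 and −56.3 at cytosines of Igfals that lie 4 bases apart and are no independent observations, −60.6 in Top1 (DNA topoisomerase I) and −55.6 in Col19a1 (a collagen). Beside Itga6, the largest higher ones were 42.9 in Tsks, 41.9 in Nfasc, which encodes an adhesion molecule of the axon initial segment, 40.4 in Gm16064 and 27.1 in Sgcz (a sarcoglycan).

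Opposite strands of a CpG are read from separate molecules. Both strands of a CpG were measured in 4750 pairs of members. The levels of the strands over all groups had a Pearson r of 0.95, given as a description across CpGs of the same libraries. In a single mouse, however, the difference between strands had an SD of 30.8 to 49.7 points at the 1570 pairs with a level of 20% to 80%. At the 500 pairs that were lower by over 25 points with age on the plus strand, that strand differed by −37.5 points on average and the other strand by −11.5. At the 121 pairs that were higher by over 25 points on the plus strand, the averages were 34.3 and −5.12. Pairs chosen on the minus strand had −11.9 on the other strand when lower and −2.54 when higher. For housing, the other strand was at 1.84 and 1.15 points when the strand chosen was lower and at 4.22 and 4.13 when it was higher, in the order plus, minus. For Aged ENR minus Young STD it was at −9.75 and −9.11 when lower and at −3.71 and 0.43 when higher. Over all 4750 pairs, the means on the plus and minus strand were −5.12 and −4.89 for age, 1.74 and 1.48 for housing and −3.38 and −3.40 for Aged ENR minus Young STD. The pairs were chosen by the value of 1 strand, so that a smaller value on the other strand follows in part from the choice.

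To describe members by gene, each of the 5281 genes with at least 5 members and enough measured mice was tested with limma on the coverage-adjusted mean of its members. For age, 0 genes were called (0 percent over all genes and region classes) and the lowest adjusted p was 0.28, while 914 genes (17.3%) were lower and 28 (0.53%) higher in Aged STD mice at an unadjusted p under 0.05, compared with 7.8% and 1.3% over all genes and region classes. With members inside CCGG only, 1022 of 3388 genes were lower and 3 higher, compared with 16.7% and 0.73%. With members outside only, 128 of 2176 genes (5.88%) were lower and 50 (2.30%) higher, compared with 3.37% and 1.94%. For housing, 0 genes were called (0 percent) with a lowest adjusted p of 0.94, and 52 genes were lower and 228 higher in Aged ENR mice at an unadjusted p under 0.05, compared with 1.41% and 2.94%. Inside CCGG, 17 genes were lower and 190 higher, compared with 1.1% and 4%, and outside 36 and 62, compared with 1.56% and 2.21%. For Aged ENR minus Young STD, 0 genes were called (0 percent) with a lowest adjusted p of 0.19, and 598 were lower and 61 higher, compared with 5.62% and 1.73%. Inside CCGG these were 659 and 11, compared with 11.1% and 0.961%, and outside 112 and 66, compared with 2.89% and 2%. Without the mice of low share, 381 genes were lower and 67 higher for age, compared with 3.58% and 2.3% over all genes and region classes. For housing, 107 were lower and 109 higher, compared with 2.53% and 1.78%. For Aged ENR minus Young STD, 493 were lower and 74 higher, compared with 4.8% and 1.98%. With 1 mouse left out at a time, 640 to 1382 genes were lower for age. The fewest were found without Young STD 4 (1532 of 24759 over all genes and region classes) and the most without Aged STD 5 (2681 of 24764). For housing 155 to 448 were higher, the fewest without Aged STD 6 (561 of 24755) and again the most without Aged STD 5 (1081 of 24761). Over all mice, calls of genes for age at an unadjusted p thus lay mostly in the same direction inside the cutting site and less so outside it.

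The genes with the most members were Gm20388 (531), Wwox (248), Zfhx3 (245), Camta1 (224), Cdh13 (185), Fgfr2 (164), Gse1 (154), Tshz2 (124), Tenm3 (118) and Nav2 (116). Gm20388 is a readthrough model on chromosome 8 that spans 65 other genes, so its value is an average over a region rather than over a gene. All 10 had a lower mean in Aged STD than in Young STD mice, by differences of −2.27 points in Fgfr2 (a fibroblast growth factor receptor) to −9.61 in Gse1. Gse1 encodes a coiled-coil protein of a corepressor complex, and its introns were the least methylated of the 10. They were at 23.4% to 30.9% in Young STD mice, at 13.3% to 21.2% in Aged STD mice and at 13.6% to 23.4% in Aged ENR mice. The young mice did not overlap with either aged group, although the highest Aged ENR mouse was just under the lowest young mouse. The age difference in Gse1 was −9.61 ± 2.16 (SE; unadjusted p = 0.00069, adjusted p = 0.31 by limma). It was −11.77 with 87 members inside CCGG, −6.99 with 67 members outside, and −7.99 without the mice of low share, and the difference of Aged ENR minus Young STD was −8.42. Gse1 thus had a difference below 0 on both kinds of site, whereas Zfhx3, a homeodomain transcription factor (−8.36 inside and 1.49 outside), and Fgfr2 (−6.00 and 3.14) had opposite signs.

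Tenm3, a teneurin that guides wiring in the hippocampus, was at 71.1% ± 1.16, 62.4% ± 7.51 and 67.1% ± 2.76, and Cdh13, a cadherin without a cytoplasmic part, at 60.9% ± 0.54, 52.5% ± 7.23 and 56.2% ± 3.28. Their age differences of −8.68 and −8.38 were −4.01 and −3.68 without the mice of low share. Nav2, a cytoskeletal protein of growing neurites, was at 50.3% ± 3.91, 42.2% ± 3.86 and 43.3% ± 5.98, and its age difference of −8.09 was −6.50 without these mice. For Wwox (an oxidoreductase gene at a fragile site), Camta1 (a calmodulin-binding transcription activator) and Tshz2 (a zinc-finger factor), the differences of −5.94, −6.48 and −7.01 shrank to −2.40, −2.69 and −3.49. In all of these genes but Nav2 and Gse1, leaving out the mice of low share moved the age difference by more than 1.5 times.

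**Figure D5:**
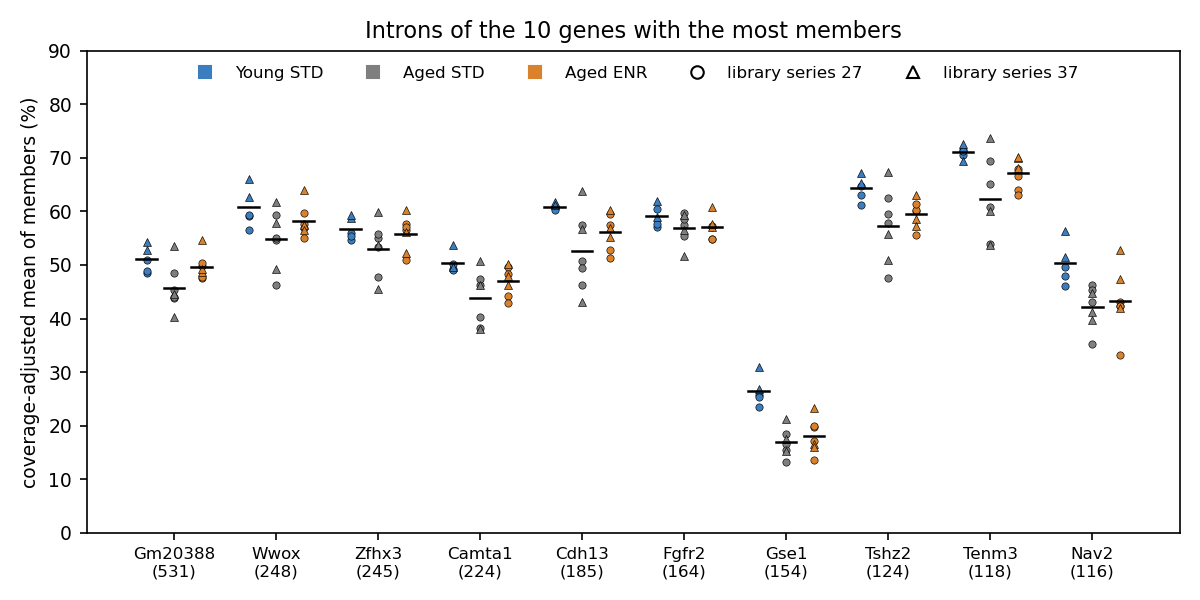
Coverage-adjusted mean methylation (y axis, percent) of the introns of the 10 genes with the most members (number of members in brackets), with 1 point per mouse, colours for groups, shapes for library series and a bar at each group mean. The lowest level is that of Gse1, where Young STD mice (23.4% to 30.9%) lie above all Aged STD mice (13.3% to 21.2%).

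The genes with the smallest p for age among those lower in Aged STD mice had between 5 and 10 members each. Apc, a brake on Wnt signalling, was at 78.3% ± 5.24 in Young STD, 42.4% ± 12.8 in Aged STD and 69.9% ± 12.1 in Aged ENR mice. Usp48 (a deubiquitinase) was at 60.9% ± 7.71, 32.1% ± 8.92 and 42.5% ± 10.9, and Rnf182 (a ubiquitin ligase) at 43.6% ± 9.66, 16.9% ± 6.74 and 21.6% ± 11.5. Lgi1, which encodes a secreted synaptic protein linked to epilepsy, was at 59.0% ± 7.14, 27.3% ± 10.2 and 41.0% ± 7.40, and Rai1, a transcription regulator, at 39.9% ± 4.52, 19.6% ± 6.66 and 30.0% ± 13.3. The age differences of −20.3 to −35.9 points in these 5 genes had an adjusted p of 0.28 by limma and were −18.0 to −32.6 without the mice of low share. Since these genes were chosen by the difference between Young STD and Aged STD mice, the place of the Aged ENR mean between them is a description only. Among genes that were higher in Aged STD mice, the smallest p were found for Mtrr (11.4 points), which encodes a reductase that keeps methionine synthase active, Smg9 (15.9), Skint3 (16.9), Cngb3 (8.65) and Ctdp1 (6.19), with adjusted p of 0.40 to 0.44.

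For housing, the smallest p among higher genes belonged to Erbb4, Epm2a, Gm49539, Lca5l and Zfp217, all with an adjusted p of 0.94 by limma. Erbb4, the neuregulin receptor of many interneurons, had 22 members and was at 82.1% ± 3.67 in Young STD, 70.7% ± 7.89 in Aged STD and 84.9% ± 3.40 in Aged ENR mice. Aged STD mice spanned 62.2% to 82.3% and Aged ENR mice 79.96% to 90.2%, with a small overlap. The housing difference of 14.2 ± 3.36 (SE, unadjusted p = 0.00075 by limma) was 13.6 inside CCGG, 13.7 outside and 9.38 without the mice of low share. Erbb4 therefore had similar values on both kinds of site. Epm2a, which encodes the glycogen phosphatase laforin, was at 85.7% ± 5.05, 79.3% ± 4.48 and 91.3% ± 3.20, and the other 3 had differences of 9.87, 25.3 and 22.0 points. Among lower genes, Ptgis (prostacyclin synthase) was at 67.0% ± 4.89, 78.5% ± 8.52 and 59.7% ± 6.92, and Cdk17, Zcwpw2, Fmnl3 and Gpr83 differed by −11.0, −18.6, −20.6 and −27.3 points.

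For Aged ENR minus Young STD, the genes with the smallest p among lower ones were Plaur, Arhgap44, Igfals, Gramd4 and Dapp1, with an adjusted p of 0.19 by limma. Arhgap44, with 13 members, was at 49.2% ± 5.19 in Young STD, 23.4% ± 17.3 in Aged STD and 25.3% ± 6.75 in Aged ENR mice. Igfals, which encodes a carrier of insulin-like growth factors, was at 65.1% ± 15.2, 22.1% ± 20.6 and 20.9% ± 12.2 with 7 members. Dapp1, an adaptor of immune-cell signalling, was at 77.9% ± 11.0, 44.5% ± 12.98 and 48.8% ± 7.49. These genes were chosen by the difference between Aged ENR and Young STD mice, so that the values are a description. The differences of Plaur (the urokinase receptor) and Gramd4 were −21.5 and −18.0 points. Among higher genes the differences were 14.3 in Abcc2, 16.3 in Gm19089, 26.4 in Def6, 11.3 in Gclc (the catalytic subunit of glutathione synthesis) and 16.0 in Rmi2.

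Genes of neuronal function were read by lists. The median age difference over all 5281 genes was −5.51 points, with 4299 lower and 982 higher in Aged STD mice, and was −8.61 inside CCGG and −1.86 outside. In each list below, 0 genes were called, and the counts refer to an unadjusted p under 0.05 by limma, at which 17.3% of all genes were lower and 0.53% higher. Of genes with at least 10 members, 633 of 2584 were lower and 4 higher. The lists were not matched to all genes by number of members. When the mice of low share were left out, 7.21% of all genes were lower and 1.27% higher, and the median difference over all genes was −2.47. No list then had more than 3 lower genes (transcription factors 3, signalling genes 2, calcium channels and axon guidance 1 each, the other 3 lists 0), and glutamate receptors and potassium channels had 1 higher gene each. The medians of these 7 lists were then −4.17 to −2.99 points. Among glutamate receptors, 21 of 25 genes were tested, and 3 (14.3%) were lower and 0 higher in Aged STD mice, with a median of −7.27 (−8.83 inside and −2.98 outside CCGG). Examples are Grik4 (87 members), a kainate receptor subunit at 43.9% ± 1.29, 38.7% ± 8.26 and 40.3% ± 2.999, and Grin2b, an NMDA receptor subunit at 49.1% ± 5.50, 41.5% ± 9.13 and 43.4% ± 7.22. Grik3 was at 56.5% ± 4.86, 51.9% ± 6.16 and 58.0% ± 1.45. The share of lower genes was near that of all genes, and the SD within Aged STD mice was larger than the age difference in the genes named.

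Of synaptic adhesion and scaffold genes, 20 of 25 were tested, and 4 (20%) were lower and 0 higher, near the 17.3% and 0.53% of all genes, with a median of −6.39 (−7.87 inside and −1.59 outside). The scaffold gene Dlgap1 was at 46.2% ± 2.17, 34.2% ± 8.15 and 35.4% ± 5.28, Dlgap2 at 53.6% ± 2.66, 42.1% ± 12.1 and 47.1% ± 4.62, and Magi2 at 65.3% ± 2.94, 59.4% ± 7.95 and 65.7% ± 1.96. Aged ENR mice were near Aged STD mice in Dlgap1 and near young mice in Magi2, although neither housing difference passed the test. Of calcium channel and release genes, 19 of 19 were tested, and 8 (42.1%) were lower and 0 higher, compared with the same 17.3% and 0.53%, with a median of −7.34 (−11.7 inside and −0.12 outside). Cacna1c, the main L-type channel of neurons, was at 48.5% ± 5.36, 36.1% ± 7.99 and 40.3% ± 4.19, and Itpr1, the calcium release channel of the endoplasmic reticulum, at 54.6% ± 4.52, 44.8% ± 8.33 and 52.2% ± 6.40. Cacna2d2 differed by −3.77 points. Of all genes with at least 10 members, 633 of 2584 were lower. The median of the calcium list outside CCGG was near 0, compared with −1.86 for all genes.

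Of potassium channel genes, 19 of 25 were tested, and 4 (21.1%) were lower and 0 higher, near the 17.3% and 0.53% of all genes, with a median of −5.33 (−8.89 inside and −5.52 outside, the latter over 9 genes). Kcnh1 was at 50.6% ± 4.48, 39.2% ± 8.31 and 39.1% ± 8.03, and Kcnma1, the large-conductance calcium-activated channel, at 52.8% ± 5.37, 42.6% ± 10.9 and 44.0% ± 4.86, while Kcnip1 differed by −3.61 points. Of axon guidance genes, 27 of 28 were tested, and 8 (29.6%) were lower and 0 higher, with a median of −7.15 (−9.66 inside and −3.69 outside). Slit3, a secreted guidance cue, was at 32.7% ± 4.09, 25.02% ± 4.55 and 26.4% ± 3.89, and its receptor gene Robo1 at 75.4% ± 2.05, 71.6% ± 5.53 and 71.3% ± 3.63. Ephb2 differed by −10.4 points inside CCGG and by 4.60 outside. Slit3 and Robo1 thus differed widely in level.

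Of neuronal and neurogenic transcription factors, 30 of 32 were tested, and 9 (30.0%) were lower and 0 higher, compared with 17.3% and 0.53% of all genes, with a median of −6.06 (−9.52 inside and −0.27 outside). This list holds Zfhx3, Camta1 and Tshz2. Of all genes with at least 10 members, 633 of 2584 were lower for age. Of intracellular signalling genes, 23 of 25 were tested, and 7 (30.4%) were lower and 0 higher, with a median of −7.67 (−10.03 inside and −1.94 outside). Prkce, a protein kinase C with 109 members, was at 42.1% ± 5.80, 29.0% ± 7.93 and 31.9% ± 2.11, the Rac activator Tiam1 at 50.6% ± 4.41, 40.9% ± 10.04 and 45.04% ± 2.76, and Kalrn, a spine regulator, at 37.3% ± 5.56, 27.4% ± 5.71 and 29.5% ± 4.40. The age difference of Prkce was −13.1 ± 4.36 (SE, adjusted p = 0.43 by limma) and −7.21 without the mice of low share. Kalrn had similar differences inside (−10.8) and outside CCGG (−8.67). The median housing difference of the 7 lists above was 1.35 to 4.19 points, compared with 2.14 over all genes. Without the mice of low share it was −2.89 to 0.11, compared with −0.15 over all genes.

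Marker genes of the cell types of the tissue were read in the same way, beside 17.3% lower and 0.53% higher of all genes. The lists hold 2 to 6 tested genes, so that 1 gene moves their share widely. Granule cell markers (5 of 9 tested) had 2 lower and 0 higher genes and a median age difference of −5.91, astrocyte markers (6 of 10 tested) 2 and 0 with −8.93, oligodendrocyte markers (2 of 13) 1 and 0 with −4.32, microglia markers (4 of 10) 1 and 0 with −3.38, and vascular markers (4 of 10) 1 and 0 with −5.67. When the mice of low share were left out, each of these lists had 0 lower genes and microglia markers had 1 higher gene, beside 7.21% lower and 1.27% higher of all genes, and the medians were −4.04 to −0.89. Inside CCGG the medians were −15.2 to −5.76 points, whereas outside they were −6.72 to −1.75 in the lists other than vascular markers, which had 0.77 with 3 genes. Introns of Prox1, the factor that defines granule cells, were at 18.6% to 34.8% with a mean of 25.1% ± 7.49 in Young STD, at 2.10% to 26.8% with a mean of 11.3% ± 7.54 in Aged STD and at 12.6% to 19.4% with a mean of 17.0% ± 2.49 in Aged ENR mice. The difference of −13.8 ± 4.18 (SE, adjusted p = 0.40 by limma) was −12.4 inside CCGG, −15.6 outside and −10.6 without the mice of low share. Of the other granule cell genes, Dsp was at 54.5% ± 6.73, 42.5% ± 9.15 and 44.1% ± 2.79 and Glis3 differed by −4.49 points. Introns of markers for other cell types had lower means in Aged STD mice as well, such as Slc4a4 and Slc1a3 of astrocytes (−10.2 and −9.41), Mbp of oligodendrocytes (−10.7), Cx3cr1 of microglia (−12.1) and Flt1 and Pecam1 of vessels (−9.25 and −9.64). St18 (2.09) and Kdr (6.89) had higher means in Aged STD mice, and Gpc5, Inpp5d and Tmem119 differed by −5.08, −2.99 and −3.77. The oligodendrocyte gene Mag had 4 members and was not tested. The oligodendrocyte median rests on 2 genes of opposite sign. The part of cell composition was not tested.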

How the data were processed

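RRBS libraries of micro-dissected dentate gyrus were sequenced by the authors as single-end reads, and the filled-in bases at fragment ends were removed from reads with adapter. Per the submitters' processing notes, Trim Galore 0.4.0, cutadapt 1.8.1, Bismark 0.16.1 and methylKit 1.5.2 were used with mm10. The deposited table gives the percent of methylated reads for each cytosine and mouse, with a missing value where coverage was too low. Per the study's methods, a cytosine needed a coverage of at least 10 reads. The table gives no read numbers, so that the depth above this minimum is unknown, a coverage minimum could not be varied and no counts could be tested. The number of columns that match no described sample was 0. The p-values measure the spread between mice, each of which was a separate library.

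Positions were compared with GRCm38, and 20 rows outside CpGs were left out. Genes and transcription starts were taken from GENCODE M21 (55450 genes, 141767 transcripts). A member in several genes was assigned to the shortest protein-coding one.

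For single CpGs, limma (3.58.1) was run on the percentages with a variance trended on mean methylation, and Benjamini-Hochberg adjustment over all CpGs of the table with variation. Gene introns (at least 5 members, 3 of them in a mouse) were tested in the same way, adjusted over all genes and region classes. All tests were two-sided, with mice of both groups compared. A single CpG was called where its difference exceeded 25 points at an adjusted p under 0.05. The code was tested on simulated data. Replicate numbers did not pair the mice, since the correlation of deviations between mice of the same number was −0.071 to 0.058.

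Named CpGs were, in each comparison, up to 5 members with the largest difference in each direction among those called, or, since none was called, among those measured in every mouse compared whose groups did not overlap. Named genes were the 10 with the most members, the 5 with the smallest p in each direction of each comparison, and the 3 with the most members in each list. One cytosine of the housing comparison is not reported here. The members, the lists and most tests were chosen with earlier results of these data known. Alternatives were other summaries of the mean, other thresholds, models and numbers of members per gene, each mouse left out in turn and, added after the values had been seen, the separate library series, the mice of low member share and the split by cutting site. Analyses used R 4.3.3 with its package data.table (1.17.8) and Python 3.11.15 with numpy 2.4.6, pandas 2.3.3 and matplotlib 3.10.9.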

Additional observations from a re-analysis of the deposited data

Results flagged for a closer look

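Single mice that stood apart from the rest of their group were found in 14 of 222 sets of values of 4 to 7 mice, while chance alone gives about 1 in 20. All values are coverage-adjusted means over the introns of a gene, which can pass 100% slightly. No explanation was tested. In Gm20388, Aged ENR 6 was at 54.6% and the others of its group at 47.6% to 50.3%. Camta1 was at 53.7% in Young STD 5 (others 49.0% to 50.2%), Tiam1 at 58.3% in Young STD 4 (others 47.2% to 50.3%) and Kcnip1 at 56.0% in Young STD 5 (others 49.6% to 50.6%). Magi2 was at 61.5% in Aged ENR 5 (others 65.4% to 67.0%), Dlgap2 at 37.7% in Aged ENR 2 (others 46.6% to 52.9%) and Kcnma1 at 43.6% in Young STD 2 (others 53.4% to 57.4%). Prox1, the granule cell factor, was at 26.8% in Aged STD 5 and at 2.10% to 11.8% in the other Aged STD mice. Gclc was at 36.7% in Aged STD 4 (others 63.9% to 70.2%), Fmnl3 at 97.3% in Young STD 4 (4 mice measured, others 80.9% to 83.0%) and Plaur at 72.9% in Young STD 5 (others 59.4% to 62.6%). Ctdp1 was at 100% in Young STD 3 (others 91.3% to 93.4%) and at 69.1% in Aged ENR 1 (others 97.7% to 102.2%). Lca5l was at 49.5% in Aged STD 2 (others 60.5% to 63.8%).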

How the results depend on the processing

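The age difference of the mean of members measured in all mice (−5.89 points) was −11.70 over all measured members, −14.00 for the median and −2.21 outside CCGG. The housing difference (2.06) was 5.85 over all measured members. For Aged ENR minus Young STD (−3.83), the median gave −9.49 and members outside CCGG −1.18. Single members called, 0 in the fits reported, were 44 for age, 9 for housing and 21 for Aged ENR minus Young STD without the variance trend, and 8 for age and 8 for the last comparison with all 3 groups in the fit. Over all CpGs these fits called 120, 26, 92, 34 and 39. The cause was not tested. With 1 mouse left out at a time, the 3 mean differences ranged from −7.10 to −5.06, from 1.23 to 3.27 and from −4.62 to −3.20, and genes called for age from 0 to 2 (1 without Young STD 3 and 2 without Aged STD 5, compared with 1 of 24747 and 5 of 24764 over all genes and region classes). The other 212 values moved by less than the spread between mice or were counts of calls that did not change. Replicate numbers did not pair the mice, and with the replicate number as a block the mean differences were −5.16 for age, 2.06 for housing and −4.74 for Aged ENR minus Young STD. With the member share of a mouse as a covariate, the mean differences were −2.79, 0.54 and −2.67. At an unadjusted p under 0.05, single members for age were then 3112 lower and 1719 higher (11416 and 16143 over all CpGs), and genes 362 lower and 38 higher (936 and 766 over all genes and region classes). The mice of low share, each library series alone and the cutting site were chosen as alternatives after the data had been seen. Without the mice of low share the mean differences were −2.78, −0.42 and −3.20. Since only percentages are given, how far depth limits these values is unknown.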
